A study of Danio rerio with 6 samples.

Results

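Growth differentiation factor 9 (gdf9, ENSDARG00000003229), bone morphogenetic protein 15 (bmp15, ENSDARG00000037491) and the factor in the germline alpha (figla, ENSDARG00000087166) were followed in whole juvenile zebrafish. The genes were chosen by name, with earlier results of these data known, and their 3 rows were taken from a table of 32520 genes. EM-juveniles were raised for 32 days in water with 10 µg/L exemestane (EM), a steroid that blocks aromatase and so the making of estrogens from androgens. Control juveniles were raised for the same time with the solvent alone, dimethyl sulfoxide (DMSO) at 10 µL/L. All fish were of the AB strain and were sampled at 32 days. Each group had 3 RNA-seq libraries, and each library was made from 25 whole bodies taken from 1 tank, so every library mixed many fish and all their tissues. The tanks were stocked with 50 embryos from 1 petri dish each, and p-values measure the spread between tanks.

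Gdf9 and Bmp15 are ligands of the transforming growth factor beta family that the oocyte secretes. In mammals they act on the surrounding granulosa cells through the type II receptor BMPR2, type I receptors and SMAD proteins, and they steer the growth of the follicle. Figla is a basic helix-loop-helix transcription factor of the oocyte nucleus, which in mice pairs with E proteins and drives the genes of the zona pellucida, the egg coat. Zebrafish gonads first pass through an ovary-like stage with early oocytes, which future males lose, and zebrafish lacking bmp15 or figla end as males. The gonad is a very small part of the body at this stage.

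The libraries held between 4057579 and 7804654 counts in EM-juveniles and between 3169530 and 7324337 counts in control juveniles. DMSO replicate 2 stood apart. It had the smallest total and 21182 detected genes, against 24418 to 24966 in the other libraries. The level of a gene is given as its normalised read count, the raw count divided by the size factor of the library. The size factor was 0.4037 in DMSO replicate 2 and between 0.8935 and 1.708 in the others, so 1 read weighs most in that library. In DMSO replicate 2, 18.1% of the genes tested were at no more than 1/5 of their level in each of the other controls. Results that rest on this library are given with and without it.

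figla had 1, 1 and 0 raw reads in EM replicates 1, 2 and 3, against 60, 1 and 26 reads in DMSO replicates 1, 2 and 3. As normalised read counts these were 0.585, 1.11 and 0 in EM-juveniles, against 48.3, 2.48 and 16.9 in control juveniles. All EM libraries lay below all controls, but DMSO replicate 2 was above the EM libraries by virtue of a single read. The mean level was 0.565 ± 0.555 in EM-juveniles and 22.5 ± 23.4 in control juveniles (SD, n = 3 each). The 3 EM libraries together held 2 figla reads and the 3 controls 87. The ratio of the pooled levels, EM over DMSO, was 0.0209 (95% exact interval for counting error alone, 0.00249 to 0.0779). Less RNA of a gene per cell and fewer cells that express it cannot be told apart in whole bodies.

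figla was lower in EM-juveniles, with a log2 fold change of -5.34 ± 1.48 (SE) and an adjusted p-value of 0.0315 in the Wald test of DESeq2. It was the 141st of 159 genes called lower when these were ordered by adjusted p-value. Of 23966 genes tested, 0.663% were called lower in EM-juveniles and 0.421% higher, or 1.08% in either direction. The call was lost when any 1 library other than DMSO replicate 2 was left out, and edgeR without its expression filter did not make it (adjusted p = 0.33). Without DMSO replicate 2 the DESeq2 adjusted p-value of figla was 0.00116, but it was 0.519 without DMSO replicate 1 and 0.0767 without DMSO replicate 3. Leaving out EM replicate 1, 2 or 3 gave DESeq2 adjusted p-values of 0.128, 0.162 and 0.215. The log2 fold changes in those fits were -5.37, -5.90 and -4.85, near that of all 6 libraries.

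gdf9 had 2, 0 and 0 raw reads in EM replicates 1, 2 and 3, against 10, 0 and 5 reads in DMSO replicates 1, 2 and 3. The normalised read counts were 1.17, 0 and 0 in EM-juveniles, against 8.04, 0 and 3.25 in control juveniles. The groups overlapped, because DMSO replicate 2 had no read while EM replicate 1 had 2. A count of 0 allows up to 3 reads, which is a level of 3.33 and 3.36 in EM replicates 2 and 3 and of 7.43 in DMSO replicate 2. That last limit is above the level in DMSO replicate 3, so the count of 0 in DMSO replicate 2 does not exclude a similar level there. In DESeq2 gdf9 had a log2 fold change of -3.02 ± 2.06 (SE) and an adjusted p-value of 0.891. The pooled reads, 2 in EM-juveniles and 15 in control juveniles, gave a ratio of 0.121 (95% exact interval 0.0135 to 0.522, counting error alone).

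bmp15, unlike gdf9 and figla, had reads in every library. It had 1, 2 and 2 raw reads in EM replicates 1, 2 and 3, against 12, 1 and 8 reads in DMSO replicates 1, 2 and 3. The normalised read counts were 0.585, 2.22 and 2.24 in EM-juveniles, against 9.65, 2.48 and 5.19 in control juveniles. The groups did not overlap, but DMSO replicate 2 was above EM replicate 3 by less than 1 read was worth in either library. In DESeq2 bmp15 had a log2 fold change of -1.95 ± 1.21 (SE) and an adjusted p-value of 0.845. The pooled ratio was 0.217 (95% exact interval 0.0638 to 0.59), from 5 reads in EM-juveniles and 21 in control juveniles. Neither gdf9 nor bmp15 passed the test, and leaving out DMSO replicate 2 did not change this (adjusted p = 0.947 for gdf9 and 1 for bmp15 in DESeq2).

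**Figure D1:**
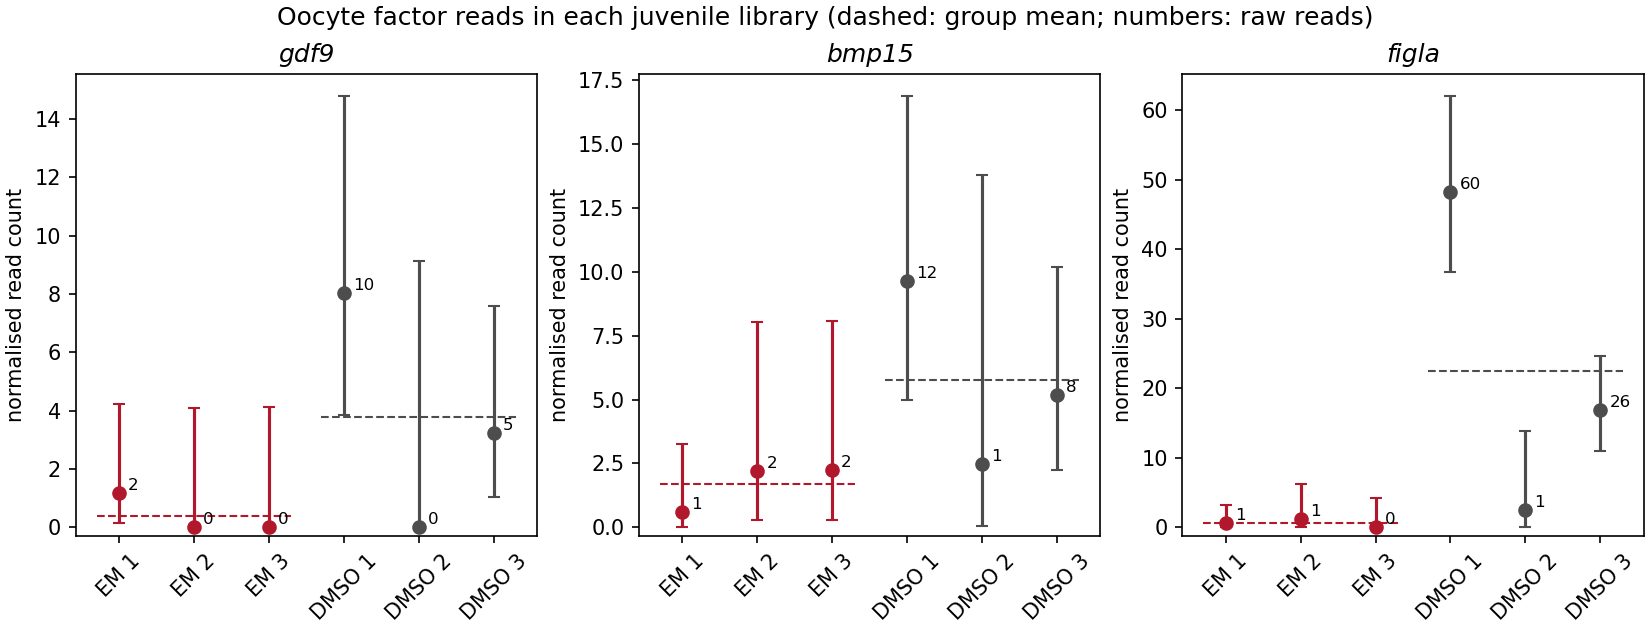
Normalised read counts of gdf9, bmp15 and figla (vertical axes, different scales) in the 3 EM libraries and the 3 DMSO libraries, with exact 95% Poisson intervals as bars, group means as dashed lines and raw reads as numbers. DMSO replicates 1 and 3 are the highest libraries in each panel, and DMSO replicate 2, with 0, 1 and 1 reads, is close to the EM libraries.

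The DESeq2 test was set beside an exact permutation test on log2(normalised read count + 1), in which 3 libraries against 3 cannot give a two-sided p-value below 0.1. figla differed by -3.28 (EM minus DMSO) and bmp15 by -1.27, both with an exact permutation p = 0.1, the smallest possible. gdf9 differed by -1.38, with an exact permutation p = 0.4. Without DMSO replicate 2 the difference of gdf9 was -2.26 (exact permutation p = 0.1, again the smallest possible), and without DMSO replicate 1 it was -0.67 (exact permutation p = 0.7). The sizes depend on what is added before the log, and with 5 in place of 1 they were -1.89 for figla, -0.65 for bmp15 and -0.60 for gdf9. On CPM, reads scaled to library sizes adjusted by the TMM factors of edgeR, they were -1.88 for figla, -0.63 for bmp15 and -0.60 for gdf9. The EM group means were lower in each of the 3 genes. By normalised read count all EM libraries were below all controls for figla and bmp15, and this was so for 5.6% of all genes tested. By library total it did not hold for bmp15.

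The order of the controls was the same in the 3 genes. DMSO replicate 1 was highest, DMSO replicate 3 second and DMSO replicate 2 lowest, an order that 18.2% of all genes tested shared. DMSO replicate 2 alone was the lowest control for 47.8% of all genes tested. DMSO replicate 3 stood at 0.35 of the level of DMSO replicate 1 for figla, at 0.404 for gdf9 and at 0.538 for bmp15. The ratio of DMSO replicate 1 to DMSO replicate 3 had a 95% exact interval of 1.78 to 4.72 for figla, so those libraries differed by more than counting error. The intervals of 0.772 to 9.24 for gdf9 and 0.699 to 5.24 for bmp15 included 1. For figla the ratio of DMSO replicate 1 to DMSO replicate 2 was 19.5 (3.37 to 782). At the rate of DMSO replicate 1, DMSO replicate 2 would have held 19.5 figla reads by its size factor or 31.6 by its total, where 1 was found.

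In EM-juveniles no common order was seen. gdf9 was highest in EM replicate 1, bmp15 in EM replicate 3 and figla in EM replicate 2. No EM library had more than 2 reads of any of the genes, so these orders rest on differences of 1 or 2 reads and are within counting error.

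The order of the controls was also read in genes with more reads that oocytes are known to express. The egg coat list comprised 7 zona pellucida genes, the proteins of the envelope that the growing oocyte lays down. All 7 had the order of DMSO replicate 1, then 3, then 2, against 18.2% of all genes tested. Their summed normalised read count was 11.1, 4.44 and 10.1 in EM replicates 1, 2 and 3, against 1580, 320 and 785 in DMSO replicates 1, 2 and 3. Of the egg coat genes, 6 had levels between 0 and 7.61 in the EM libraries and between 17.3 and 104 in DMSO replicate 2. zp2l2 had, as figla did, 1 read in DMSO replicate 2. The level in DMSO replicate 2 was between 0.1 and 0.331 of that in DMSO replicate 1 for these genes, against 0.0513 for figla, 0.257 for bmp15 and 0 for gdf9.

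**Figure D2:**
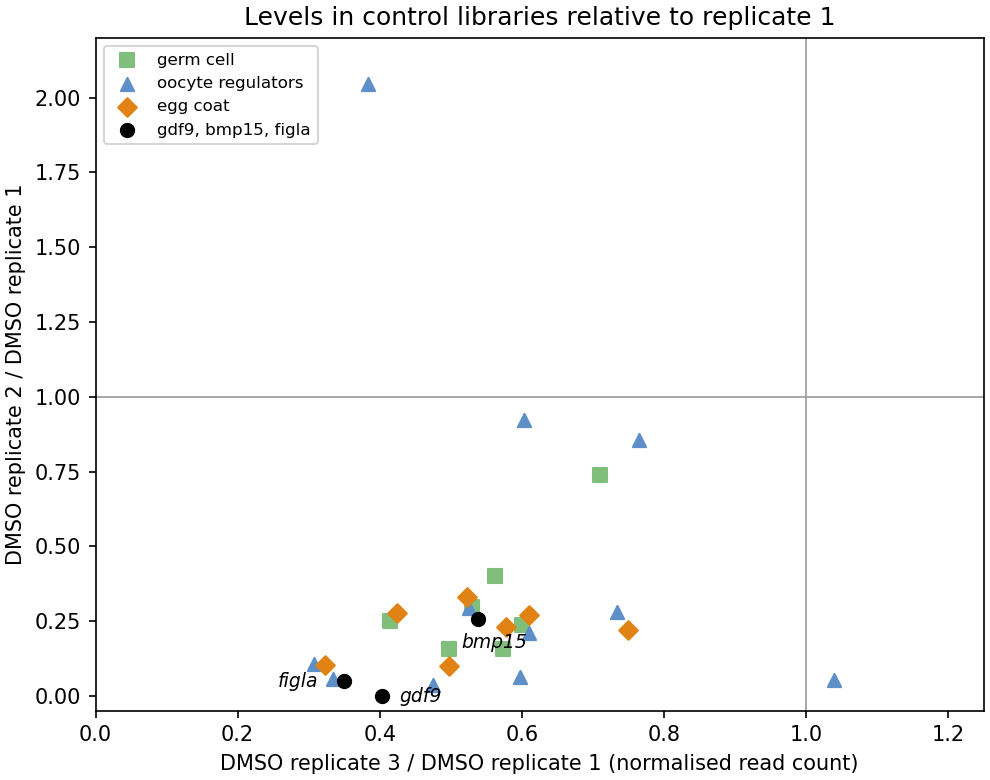
Level in DMSO replicate 3 (horizontal axis) and in DMSO replicate 2 (vertical axis), each divided by the level in DMSO replicate 1, for gdf9, bmp15, figla and the egg coat, oocyte regulator and germ cell genes, 1 point per gene. All but 2 genes, btg4 at 1.04 on the horizontal axis and gdf3 at 2.05 on the vertical axis, lie below 1 on both.

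Of the 7 egg coat genes, 6 were called lower and 0 higher in EM-juveniles by DESeq2, and all 7 had all EM libraries below all controls. Of all genes tested, 0.663% were called lower and 5.6% had that separation. The list was drawn up with earlier results of these data known, so these counts only describe it. edgeR called 0 of the 6 that passed its filter and 1 of the 7 without the filter, and 5 of the 7 when DMSO replicate 2 was left out. Over all genes these edgeR fits called 0 of 19264, 7 of 27184 and 127 of 20784. limma voom called 6 of 6, and DESeq2 on genes with at least 10 counts in at least 3 libraries called 5 of 5. Over all genes these 2 fits called 93 of 19264 and 90 of 19592. The egg coat genes passed those filters only through their reads in the controls, so 6 of 6 and 5 of 5 add no support. The median log2 fold change of the 7 egg coat genes was -7.89, against 0.00090 over all genes tested. zp3b, an egg coat gene, had levels of 7.61, 2.22 and 3.36 in EM replicates 1, 2 and 3, against 340, 91.7 and 208 in DMSO replicates 1, 2 and 3. DESeq2 gave it a log2 fold change of -5.52 ± 0.72 (SE) and an adjusted p-value of 7.07e-11. zp2l2 was the 1 egg coat gene not called, with a log2 fold change of -3.77 and an adjusted p-value of 0.383. It was also the sparsest of them, with 0.585, 1.11 and 0 in EM-juveniles and 11.3, 2.48 and 8.44 in control juveniles.

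A second list, likewise drawn up with earlier results known, held 11 oocyte regulators and maternal factors. DESeq2 called 7 of them lower and 0 higher, against 0.663% and 0.421% of all genes tested. edgeR called 0 of the 6 that passed its filter and 0 of the 11 without it, and 6 of 10 when DMSO replicate 2 was left out. Over all genes these fits called 0, 7 and 127. limma voom called 3 of the 6 genes of the list that passed the filter, and 93 of 19264 over all genes. The median log2 fold change was -4.26. The order of DMSO replicate 1, then 3, then 2 held for 7 of the 11, against 18.2% of all genes tested. zar1, an RNA-binding factor stored in the oocyte, had 4.10, 1.11 and 3.36 in EM replicates 1, 2 and 3, against 421.5, 44.6 and 129.8 in DMSO replicates 1, 2 and 3 (log2 fold change -6.08, DESeq2 adjusted p = 7.64e-08). npm2b, a histone chaperone of the egg nucleus, had 1.76, 4.44 and 2.24 in EM-juveniles, against 86.1, 79.3 and 51.9 in control juveniles. npm2b did not have the common order, since DMSO replicate 2 was its second library. lhx8a, a homeobox factor of early oocytes, had 17.0, 18.9 and 28 in EM-juveniles and 50.7, 14.9 and 26.6 in control juveniles. Its groups overlapped and its adjusted p-value was 0.998. The libraries were of whole bodies, so reads of any gene of this list need not come from oocytes, and their source was not tested. igf2bp3, an RNA-binding protein, had 244.1, 251.8 and 335.8 in EM-juveniles and 341.9, 292.3 and 261.6 in control juveniles, with overlapping groups and an adjusted p-value of 1.

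**Figure D3:**
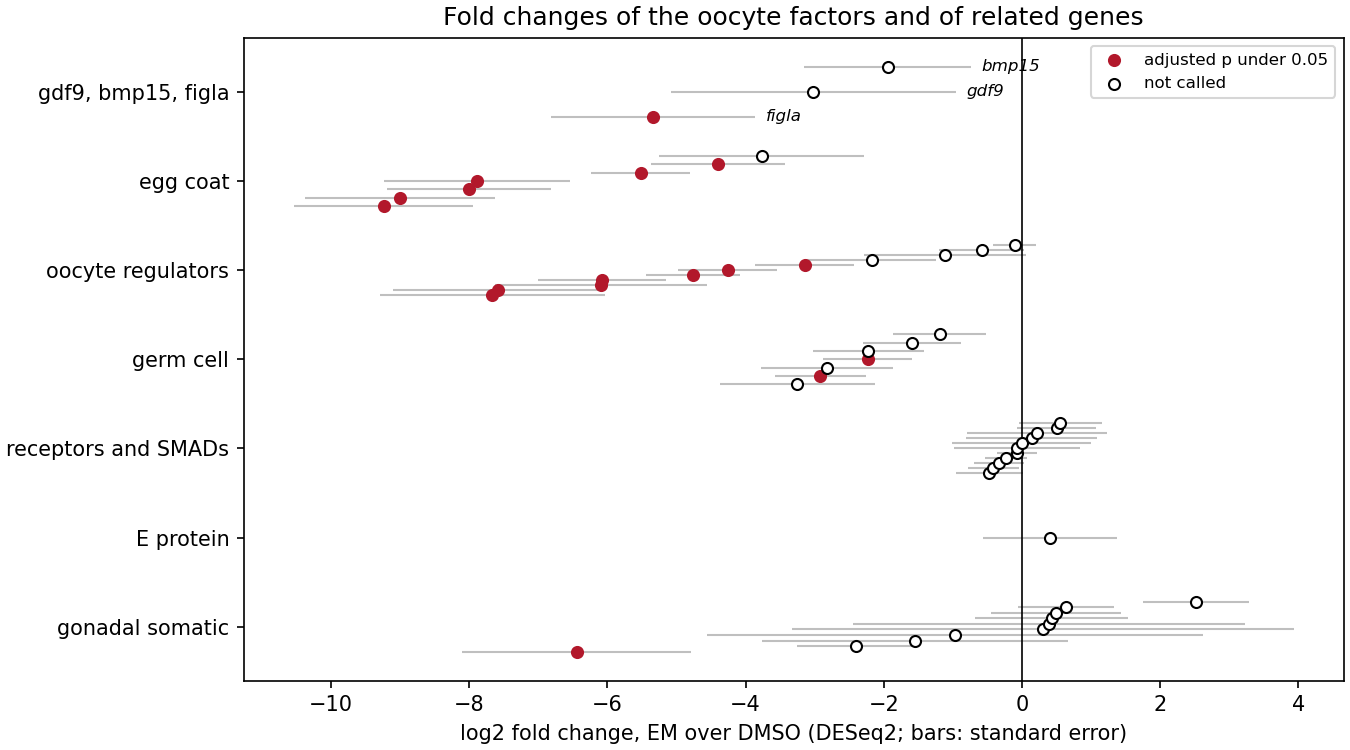
Log2 fold change, EM over DMSO, from DESeq2 (horizontal axis, bars are standard errors) for gdf9, bmp15, figla and the 6 lists of related genes (rows), with called genes filled. figla at -5.34 lies within the range of the egg coat genes, -9.24 to -3.77, gdf9 at -3.02 and bmp15 at -1.95 lie above it, and the receptors and SMADs lie between -0.475 and 0.552.

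Genes of germ cells of both sexes were used to set the oocyte factors against the germ line as a whole. Of the 7 genes in this list, 2 were called lower and 0 higher by DESeq2, against 0.663% and 0.421% of all genes tested. The median log2 fold change was -2.24. The order of DMSO replicate 1, then 3, then 2 held for 6 of the 7, against 18.2% of all genes tested. That order was therefore not particular to the oocyte lists. edgeR called 0 with or without its filter, and 2 when DMSO replicate 2 was left out. Over all genes these fits called 0, 7 and 127. limma voom called 2 of the 5 germ cell genes that passed the filter, and 93 of 19264 over all genes. Those called by DESeq2 were dazl, an RNA-binding protein of germ cells, with an adjusted p-value of 0.00178, and tdrd1, a tudor protein of the piRNA pathway, with 0.0478. Without DMSO replicate 2, DESeq2 called 4 of the 7, and without EM replicate 2, EM replicate 3 or DMSO replicate 1 it called 0. Over all genes those fits called 270 of 23411, 127 of 21186, 126 of 21769 and 128 of 23309. DESeq2 called 1, dazl, without DMSO replicate 3 and 2, dazl and tdrd9, without EM replicate 1. Over all genes these 2 fits called 270 of 21168 and 542 of 23292. ddx4, the germ cell helicase Vasa, had 49.8, 31.1 and 20.2 in EM-juveniles and 175.4, 27.3 and 100.6 in control juveniles. Its groups overlapped through DMSO replicate 2 only, and its DESeq2 adjusted p-value was 0.561. Without DMSO replicate 2, DESeq2 called ddx4 lower (log2 fold change -2.01, adjusted p = 0.00436). The list summed to 155, 115 and 69.4 in EM replicates 1, 2 and 3, against 652, 154 and 360 in DMSO replicates 1, 2 and 3, so DMSO replicate 2 lay just below EM replicate 1 in germ cell reads.

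Relative to the germ cell reads, the pooled intervals of EM-juveniles and control juveniles were apart for figla and overlapped for gdf9 and bmp15. These intervals cover counting error alone and not the spread between tanks. Per 1000 reads of the germ cell list, figla had 3.79, 9.62 and 0 reads in EM replicates 1, 2 and 3, against 74.0, 16.1 and 46.8 in DMSO replicates 1, 2 and 3. Pooled, this was 4.65 in EM-juveniles (95% exact interval 0.561 to 16.9) and 60.9 in control juveniles (48.5 to 75.7). By library, the figla intervals of EM replicates 2 and 3, 0.241 to 54.8 and 0 to 61.3, included the value of DMSO replicate 3. The interval of EM replicate 1, 0.0955 to 21.3, lay below those of DMSO replicates 1 and 3. That of DMSO replicate 2, 0.402 to 93.2, overlapped those of all EM libraries. bmp15 had 3.79, 19.2 and 32.3 per 1000 germ cell reads in EM-juveniles and 14.8, 16.1 and 14.4 in control juveniles. Its pooled values were 11.6 (3.76 to 27.3) in EM-juveniles and 14.7 (9.07 to 22.6) in control juveniles, with overlapping intervals. gdf9 had pooled values of 4.65 (0.561 to 16.9) in EM-juveniles and 10.5 (5.86 to 17.4) in control juveniles, with overlapping intervals as well.

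The difference in mean log2 of the same ratio, with 1 added to both levels, was -1.67 for figla (EM minus DMSO, exact permutation p = 0.1, the smallest possible). It was 0.23 for gdf9 and 0.35 for bmp15, with exact permutation p-values of 0.5 and 0.6. With 5 added instead of 1, the value of figla was -0.31 (exact permutation p = 0.5). The direction of the values of gdf9 and bmp15 was not stable. That of gdf9 was negative with a pseudocount of 0.5 and without DMSO replicate 2, and that of bmp15 was negative without EM replicate 3.

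**Figure D4:**
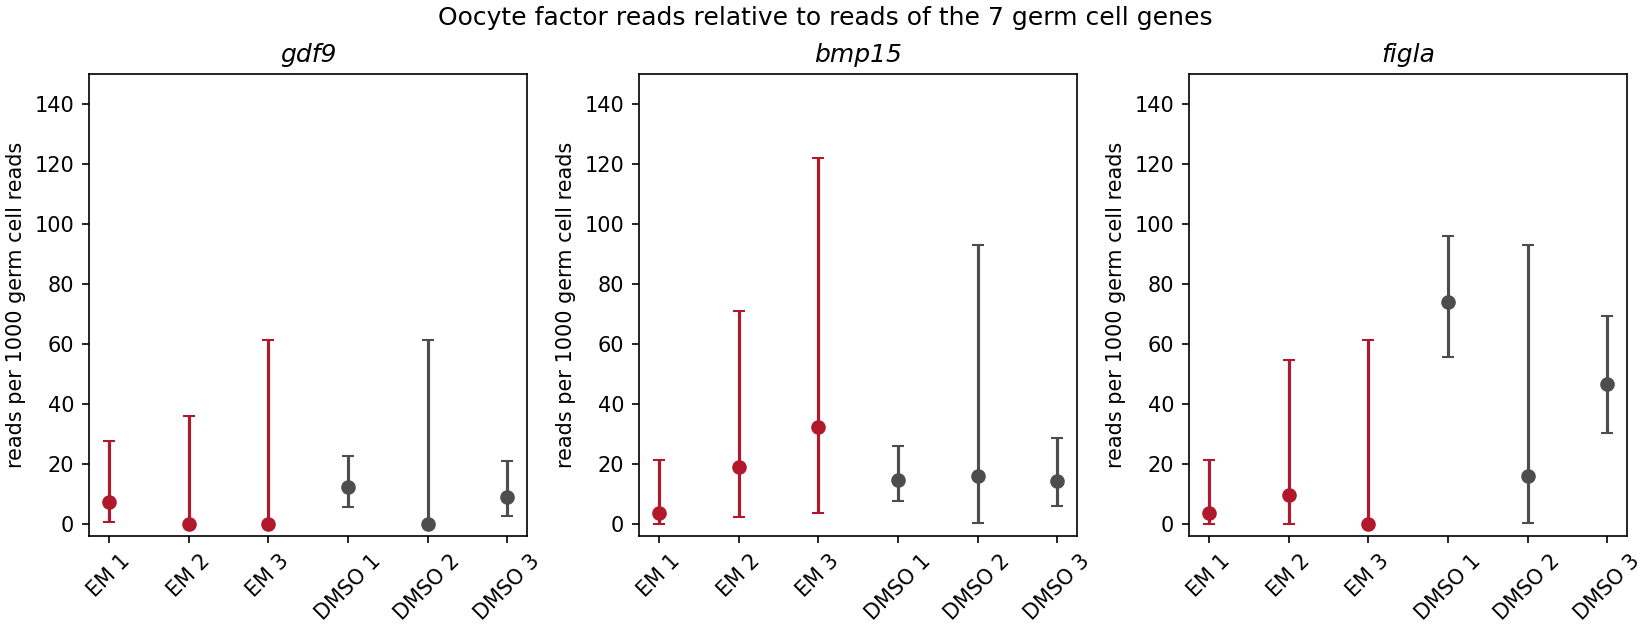
Reads of gdf9, bmp15 and figla per 1000 reads of the 7 germ cell genes (vertical axis) in the 3 EM libraries and the 3 DMSO libraries, with 95% exact intervals for counting error. figla is highest in DMSO replicates 1 and 3, at 74.0 and 46.8, while bmp15 lies between 14.4 and 16.1 in all controls and between 3.79 and 32.3 in the EM libraries.

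The share of figla among the reads of the 3 genes was compared between the groups after the values were seen. figla gave 2 of the 9 reads of the 3 genes in EM-juveniles, or 22.2% (95% exact Clopper-Pearson interval 2.81 to 60%), and 87 of 123 in control juveniles, or 70.7% (61.9 to 78.6%). By library it was 1 of 4, 1 of 3 and 0 of 2 reads in EM replicates 1, 2 and 3, against 60 of 82, 1 of 2 and 26 of 39 reads in DMSO replicates 1, 2 and 3. In control juveniles the share was 73.2% in DMSO replicate 1 and 66.7% in DMSO replicate 3, and the 2 reads of DMSO replicate 2 could not place it. The intervals of all 6 single libraries overlapped, and only the reads pooled by group had intervals that did not. Because read number also depends on transcript length, these shares compare libraries and not the levels of the genes. The ratio of bmp15 to gdf9 reads was 1.2 (0.475 to 3.1) in DMSO replicate 1 and 1.6 (0.462 to 6.22) in DMSO replicate 3, and no EM library had the 3 reads of each gene that were required for it.

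Set against the egg coat reads instead, a denominator that was likewise taken up after the values were seen, bmp15 had 6.13, 7.75 and 6.62 reads per 1000 egg coat reads in DMSO replicates 1, 2 and 3. figla had 30.6, 7.75 and 21.5 there. The value in DMSO replicate 2 is 1 read for either gene, and its interval of 0.195 to 44 included both other control values of each. In the EM libraries the egg coat list itself had only 19, 4 and 9 raw reads. Pooled, it had 32 reads in EM-juveniles and 3296 in control juveniles. A gene that falls less than this list therefore has a higher ratio in EM-juveniles. Pooled over the EM libraries, bmp15 had 156 reads per 1000 egg coat reads (95% exact interval 47.5 to 404), from 5 reads. In control juveniles it had 6.37 (3.94 to 9.76), and these intervals did not overlap. By library, the bmp15 interval of EM replicate 1, 1.27 to 331, included the pooled control value. Those of EM replicates 2 and 3, 45.2 to 3490 and 23.4 to 1070, lay above it. The pooled intervals of gdf9 and figla overlapped between the groups. For gdf9 they were 62.5 (7.26 to 245) in EM-juveniles against 4.55 (2.54 to 7.52) in control juveniles. For figla they were 62.5 (7.26 to 245) in EM-juveniles against 26.4 (21.1 to 32.7) in control juveniles.

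Of the genes that may receive and relay the signals of Gdf9 and Bmp15, the 11 that were read were not called in either direction. They are genes with a symbol in the tables on adult gonads and do not cover the whole pathway. Of 11 activin, BMP and TGF-beta receptors and SMADs, 0 were called by DESeq2, 0 had an unadjusted p-value under 0.05, and 0 of the 10 that passed the filter of edgeR and limma voom were called by either. Over all genes tested, DESeq2 called 1.08%, edgeR 0 of 19264 and limma voom 93 of 19264. The absence of calls in so short a list therefore does not set it apart from other genes. The median log2 fold change of the 11 genes was -0.071. bmpr2a, a type II receptor, had 151.6, 115.4 and 134.3 in EM replicates 1, 2 and 3, against 109.4, 24.8 and 135 in DMSO replicates 1, 2 and 3. bmpr2b, its paralogue, had 127.6, 55.5 and 69.4 in EM-juveniles, against 92.5, 2.48 and 131.8 in control juveniles. In both, DMSO replicate 2 was the lowest library, and 4 of the 11 genes were there at no more than 1/5 of each other control. smad2, a signal transducer downstream of type I receptors, had the smallest adjusted p-value of the list, 0.971 in DESeq2, with 283.3, 189.7 and 251.8 in EM-juveniles and 255.8, 431 and 286.3 in control juveniles. These genes are expressed in many tissues of the body, so the levels are not those of the gonad. tcf3a, an E protein of the kind that Figla pairs with in mice, had 58.0, 48.8 and 42.5 in EM-juveniles, against 36.2, 0 and 74.0 in control juveniles, with an adjusted p-value of 1 in DESeq2.

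The genes whose levels over the 6 libraries were most like each oocyte factor were sought among 4225 genes with a symbol in the tables of the study and a mean level of at least 5. Likeness was Pearson's r of log2(normalised read count + 1). It is given as a description because the 6 points share the grouping and the low total and size factor of DMSO replicate 2. For gdf9 the closest were ddx4 (r = 0.985), LO017716.1 (0.98) and piwil1 (0.966), an Argonaute protein of germ cells. For bmp15 they were trim35-29 (0.968), the cyclin ccnb2 (0.963) and the claudin cldng (0.963). For figla they were tdrd1 (0.992), si:ch211-263m18.4 (0.987) and si:dkey-229d11.5 (0.985). Of these, tdrd1, cldng, si:ch211-263m18.4 and si:dkey-229d11.5 were called lower in EM-juveniles, with DESeq2 adjusted p-values of 0.0478, 0.00107, 0.0257 and 0.00135. Of all genes tested, 0.663% were called lower. Genes picked for following the members in these same libraries tend to be lower in EM-juveniles too, so the calls add no support. The tables of the study list genes by its own comparisons, the juvenile one included, so the candidates were not drawn evenly from all genes.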

How the data were processed

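The authors prepared stranded mRNA libraries, aligned the reads to GRCz11 with HISAT2 2.0.5 and the Ensembl 95 annotation, removed duplicate reads with SAMtools 1.5 and counted reads over exons with HTSeq 0.9.1 with its reverse strand setting. What was deposited is a table of raw counts for each Ensembl gene, not normalised. Removing duplicates can lower counts. Columns were matched to samples by title.

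Counts were analysed in R 4.3.3 with DESeq2 1.42.0, as in the study: size factors, two-sided Wald test, Benjamini-Hochberg adjustment over all genes tested, threshold 0.05, no covariate. The deposited table was fitted whole and only the rows reported were read from it. edgeR 4.0.16 (quasi-likelihood, TMM), limma 3.58.1 (voom with quality weights), other filters and factors, a replicate block and leaving out each library were alternatives. DESeq2 and edgeR were tested on simulated data. The changed genes there had higher mean levels than gdf9, bmp15 and figla, so the simulation does not cover tests at their depth. Intervals are 95% exact Poisson or binomial intervals. They and the floor of 3 counts cover counting error alone: with no molecular identifiers, reads do not stand for separate molecules. Libraries of a group came from separate tanks, and no pair agreed within sampling noise.

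The members and lists were chosen with earlier results of these data known. Symbols were tied to identifiers by the study's tables on adult gonads, and by that on juveniles for figla. Symbols given only by the juvenile table were kept out of the lists. Named genes were those with the smallest and largest adjusted p-value of a list (where several tied at the largest, those named for their role), genes named for their role, cyp17a1, gsdf and inha (chosen after their values were seen), genes counted as called, and the 3 genes most like each member. The authors' columns of fold changes and p-values in those tables were not used. Sequences and gene positions are not reported here.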

Additional observations from a re-analysis of the deposited data

How the results depend on the processing

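The log2 fold changes of gdf9, bmp15 and figla were negative under every alternative that could fit them, from -4.27 to -1.90 for gdf9, from -2.22 to -1.33 for bmp15 and from -5.90 to -4.16 for figla, and gdf9 and bmp15 were never called. The expression filter of edgeR and voom and the minimum of 10 counts in 3 libraries removed all 3 genes, and DESeq2 gave gdf9 or bmp15 no adjusted p-value in some fits. figla was not called by edgeR without its filter (-5.13, adjusted p = 0.33), nor in any DESeq2 fit without 1 library except that without DMSO replicate 2. On the libraries other than DMSO replicate 2, an alternative added after the data were seen, edgeR called it (-5.61, adjusted p = 0.036).

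DESeq2 called 101 genes higher and 159 lower, edgeR 0 and 0 (759 at an unadjusted p-value under 0.05), edgeR without its filter 1 and 6, voom 16 and 77, and the minimum of 10 counts 34 and 56. edgeR on the libraries other than DMSO replicate 2 called 4 higher and 123 lower, the lower ones including 5 egg coat genes, 6 oocyte regulators and 2 germ cell genes. Leaving out 1 library gave 19 to 406 higher and 85 to 191 lower. Egg coat genes called lower numbered 0 with edgeR, 1 without its filter, 6 with voom, 5 with the minimum of 10 counts and 5 to 6 without 1 library. Oocyte regulators numbered 0 with edgeR with or without the filter, 3 with voom, 4 with the minimum of 10 counts and 5 to 8 without 1 library. Germ cell genes numbered 0 with both forms of edgeR, 1 with TMM factors in DESeq2, with the minimum of 10 counts and with independent filtering off, and 0 to 4 without 1 library. Gonadal somatic genes numbered 0 with both forms of edgeR, voom, the minimum of 10 counts and edgeR on the other 5 libraries, and 0 to 1 without 1 library. Genes of all lists called higher numbered 0 to 1 without 1 library. The filters leave fewer genes to test and keep egg coat genes only through their reads in the controls. The cause was otherwise not tested.

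The replicate block changed the call of figla (-5.00, adjusted p = 0.091 in DESeq2). With the block DESeq2 called 64 genes higher, 0 germ cell genes and 0 gonadal somatic genes, and edgeR called 1 higher and 47 lower, with 2 oocyte regulators, 0 germ cell genes and 0 gonadal somatic genes. Same-numbered libraries come from different tanks, and the correlations of their deviations were -0.0049, 0.161 and -0.181. Libraries with different numbers gave -0.15 to 0.226. With 3 libraries per group these values cannot decide whether the numbers pair the libraries.

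Relative to the germ cell reads, gdf9 was reversed with a pseudocount of 0.5 (-0.14), and it ran from -0.095 to 0.47 without 1 library. bmp15 ran from -0.14 to 0.95 and was reversed without EM replicate 3. The cause was not tested. At 2 to 5 pooled reads in the EM libraries, depth limits every statement on gdf9, bmp15 and figla.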

Other observations

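Genes known from the somatic cells of the gonad were measured beside the oocyte factors. The libraries were of whole bodies, so reads of these genes need not come from the gonad. Of 10 such genes, 6 received an adjusted p-value in DESeq2, of which 1 was called lower and 0 higher. Of all genes tested, 0.663% were called lower and 0.421% higher. The median log2 fold change was 0.35 over all 10, those without an adjusted p-value included (0.00090 over all genes tested). amh, the anti-Müllerian hormone of Sertoli and granulosa cells, had 58.0, 41.1 and 28 in EM replicates 1, 2 and 3, against 6.44, 0 and 13 in DMSO replicates 1, 2 and 3. All EM libraries lay above all controls, with a log2 fold change of 2.52 ± 0.77 (SE) and a DESeq2 adjusted p-value of 0.0827. How many of all genes tested lay so was not counted. amh was called without DMSO replicate 2 (adjusted p = 0.0285) and without DMSO replicate 3 (adjusted p = 0.0405) in DESeq2. gsdf and inha, also genes of Sertoli or granulosa cells, were not called, and their groups overlapped. gsdf had 61.5, 45.5 and 23.5 in EM-juveniles, against 29.0, 7.43 and 44.8 in control juveniles. cyp11a1, the side-chain cleavage enzyme at the start of steroid synthesis, was the gene called lower (adjusted p = 0.0124), with 0 reads in all EM libraries and levels of 23.3, 2.48 and 16.2 in DMSO replicates 1, 2 and 3. cyp17a1, an enzyme of androgen synthesis, was not called, with 2.34, 3.33 and 2.24 in EM-juveniles, against 15.3, 7.43 and 16.9 in control juveniles (log2 fold change -2.40, DESeq2 adjusted p = 0.261). All its EM libraries lay below all controls, as was so for 5.6% of all genes tested. cyp19a1a, the gonadal aromatase that EM inhibits, was near 0 in all libraries, with 0, 0 and 2.24 in EM-juveniles and 0, 0 and 1.3 in control juveniles.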
